A study of Mus musculus with 25 samples.

Results

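Several genes that restrain or tune Wnt signaling were followed in mouse embryonic stem (ES) cells with graded β-catenin activity. The set comprised the 10 of the 48440 genes in the count table that carry the symbols *Axin2*, *Nkd1*, *Notum*, *Znrf3*, *Rnf43*, *Lgr4*, *Lgr5*, *Dkk1*, *Apcdd1* and *Sfrp1*, each matched by its Ensembl identifier. Transcripts had been counted by mcSCRB-seq, a 3′ RNA-seq method that tags each molecule, in 25 libraries of the feeder-free mouse line E14, grown in serum with leukemia inhibitory factor. Unedited cells were kept for 48 h with 0, 2.5, 5, 7.5 or 10 µM CHIR99021, a small-molecule inhibitor of the kinase GSK3, with 2 libraries per dose. The other 15 libraries came from 15 clonal lines, 1 library per clone and none given CHIR99021, each heterozygous for one of 11 missense mutations in exon 3 of *Ctnnb1*, the gene of β-catenin. A selection cassette was first placed in *Ctnnb1* and then replaced by the mutant sequence, so that every clone had passed through targeting, picking and expansion, which the unedited cells had not. Differences between clones and unedited cells therefore cannot be told apart from the effects of cloning.

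The mutations lie in the degron, the short stretch of β-catenin that is phosphorylated and then marked for destruction. They were put in 3 classes by the order of a mutation effect score. This score came from a TCF/Lef reporter in other ES cells. The high class held S37A, S37C, S37F, S37Y, T41A and T41I (9 clones), the medium class S45F and S45P (3 clones), and the low class T41N, T41S and S45C (3 clones). The study had formed the same classes by clustering these same libraries, so a difference between classes is not independent evidence that the classes exist. S37F, T41A, T41I and S45F were represented by 2 clones each and the other mutations by 1 clone.

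In the absence of a Wnt ligand, a complex built on AXIN and APC holds β-catenin for phosphorylation by GSK3, and the phosphorylated protein is degraded. When degradation fails, β-catenin enters the nucleus and activates genes with TCF/LEF factors, and several of these genes encode inhibitors of the pathway. These inhibitors act at different levels: on the ligand outside the cell, on the receptors in the membrane, or on the destruction complex itself, and those that act upstream of the complex have little hold on a β-catenin that can no longer be degraded.

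Libraries held 306157 to 2083398 counts, and 3 counts, the limit that a count of 0 allows at 95% confidence, corresponded to 1.44 to 9.80 CPM (counts scaled to 1000000 per library). The 10 µM replicate 1 library was the shallowest. All 8 ES cell markers had counts in every dose and class. Their summed level was 4432 and 4476 CPM in untreated cells, 4183 to 5471 CPM in high clones, 3630 to 4872 CPM in medium clones and 1823 to 2821 CPM in low clones. Low clones also carried more of 6 neural markers, 151 to 238 CPM in sum against 102 to 142 CPM in medium and 21.6 to 97.0 CPM in high clones, and the T41S clone had 166 CPM of 6 fibroblast markers. Their part in the differences between classes was not tested. Mitochondrial counts were 0.485 to 0.562% of the total in 4 unedited libraries (untreated replicate 2 and replicate 1 of 2.5, 5 and 10 µM) and 0.986 to 1.46% in the other 6. In bulk samples, fewer cells that express a gene and less RNA per cell cannot be told apart.

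Enough counts for a test against dose were present for 7 of the 10 genes: *Axin2*, *Nkd1*, *Notum*, *Znrf3*, *Rnf43*, *Lgr4* and *Sfrp1*. In both untreated libraries *Rnf43* lay below the level of the filter on low counts, 10 counts at median depth. It passed through the treated libraries, so its calls along the dose and against untreated cells are not read as tests. *Dkk1* was tested only in some comparisons, while *Lgr5* with 31 counts and *Apcdd1* with 4 counts over all 25 libraries were never tested. RefSeq (GRCm38.p6) gave promoters for 5 of the 10 genes: *Axin2*, *Dkk1*, *Lgr4*, *Nkd1* and *Rnf43*. The 250 bases before each start were searched for CTTTGA, the core of the sequence bound by TCF/LEF factors, on both strands (TCAAAG on the other strand). It was present in 13.8% of the 32851 promoters in the table. Among the 5 genes it was found only before *Dkk1*, at 2 places that begin 174 and 117 bases before the RefSeq start. They are shown here, with the match in capitals, because *Dkk1* was the only one of the 5 genes with a match. Both stretches are written along the minus strand of chromosome 19, the strand of the gene, at chr19:30549653-30549682 and chr19:30549596-30549625. The distal one reads TCAAAG, so its CTTTGA is on the plus strand. GENCODE M21 places the 5′ end of the gene at position 30549665, so the proximal stretch lies inside the gene as placed there. The stretches searched for *Nkd1* (chr8:88527383-88527632) and *Rnf43* lie inside the genes as GENCODE M21 places them, from positions 88521354 and 87662722. The bases before those GENCODE starts were not searched.
*Dkk1* distal match: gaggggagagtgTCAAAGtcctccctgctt
*Dkk1* proximal match: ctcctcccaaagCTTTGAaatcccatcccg

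The stretch before *Axin2*, at chr11:108920099-108920348 on the plus strand, is shown because this gene was called both along the CHIR99021 dose and along the mutation score. It held no match and 69.2% G and C bases. A match or its absence in this window says nothing of binding, and enhancers further away were not examined.
*Axin2* upstream: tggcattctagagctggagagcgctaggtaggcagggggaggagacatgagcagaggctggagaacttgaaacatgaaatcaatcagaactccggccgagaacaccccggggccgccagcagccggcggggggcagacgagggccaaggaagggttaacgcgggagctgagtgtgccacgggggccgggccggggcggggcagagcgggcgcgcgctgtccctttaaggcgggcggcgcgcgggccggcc

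The first question was which of the genes follow inhibition of GSK3 in unedited cells. *Axin2*, *Nkd1*, *Notum*, *Znrf3* and *Rnf43* rose with the dose of CHIR99021, *Sfrp1* fell, and *Lgr4* did not pass the test. Leaving *Rnf43* aside, all genes of the set that were tested except *Lgr4* were called, where 12.5% of all 10033 genes tested were called. The median fitted change of the 7 genes from 0 to 10 µM was 2.12 on the log2 scale, against 0.0084 for all genes. That median is the value of *Rnf43* itself. Cell type markers moved with the dose as well. The sum of 8 mesendoderm markers, of which *T* is also a direct Wnt target, was 20.1 and 20.2 CPM in untreated cells, 48.9 and 57.2 CPM at 2.5 µM, 110 and 132 CPM at 5 µM, 126 and 146 CPM at 7.5 µM, and 145 and 173 CPM at 10 µM, with *Mesp1* at 0 from 5 µM upward and *Foxa2* at 0 at 2.5 and 5 µM. The sum of the ES cell markers went from 4432 and 4476 CPM to between 3388 and 3655 CPM at 10 µM, and the neural markers from 90.2 and 91.4 CPM to between 42.2 and 45.7 CPM. The part of these cells in the dose responses was not tested.

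**Figure D1:**
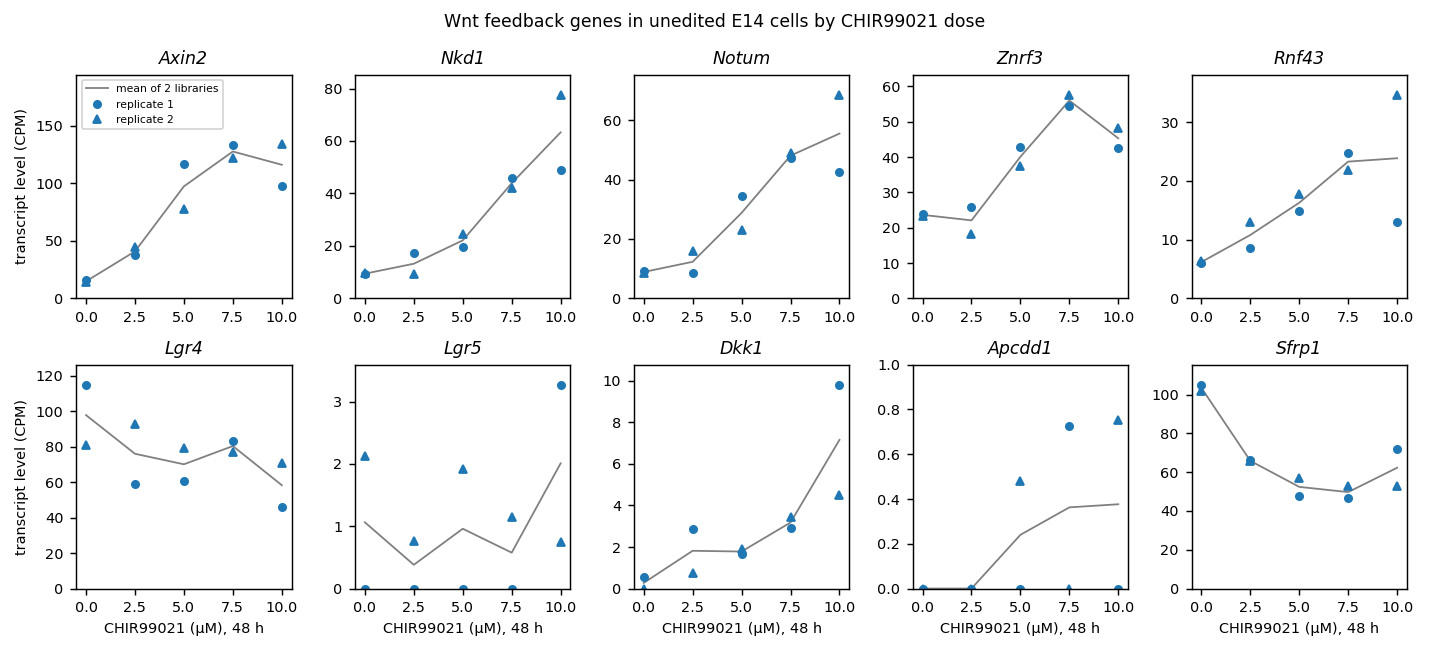
Transcript level (CPM, vertical axes, each from 0) of the 10 genes in unedited E14 cells against CHIR99021 dose (µM, horizontal axes). Circles and triangles are the 2 libraries of each dose and the line joins their means; *Axin2* climbed from 13.8 and 15.8 CPM to 98.0 and 134 CPM, *Sfrp1* fell from 102 and 105 CPM to 65.6 and 66.1 CPM at 2.5 µM, and *Lgr5* and *Apcdd1* stayed near 0.

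*Axin2* encodes the inducible scaffold of the destruction complex. Its level was 15.8 and 13.8 CPM in untreated cells, 37.4 and 44.2 CPM at 2.5 µM, 117 and 77.8 CPM at 5 µM, 133 and 122 CPM at 7.5 µM, and 98.0 and 134 CPM at 10 µM. Each dose up to 7.5 µM lay wholly above the dose before it, and the 10 µM libraries overlapped those of 5 and 7.5 µM. The fitted log2 change from 0 to 10 µM was 2.76 ± 0.30 (standard error, n = 10 libraries; adjusted p = 1.26e-07, edgeR quasi-likelihood test). *Axin2* rose at 2.5 µM by 1.48 ± 0.29 (adjusted p = 0.0012), a comparison in which 2.32% of all genes were called. This call was lost without untreated replicate 1 or without 2.5 µM replicate 2, where the adjusted p reached 0.0817. From 5 µM to the mean of 7.5 and 10 µM, the fitted difference of *Axin2* was 0.46 ± 0.16 (adjusted p = 0.870).

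*Nkd1*, whose product binds Dishevelled and dampens the signal passed on from the receptor, was at 9.24 and 9.57 CPM in untreated cells, 17.2 and 9.15 CPM at 2.5 µM, 19.7 and 24.5 CPM at 5 µM, 45.7 and 42.1 CPM at 7.5 µM, and 49.0 and 77.6 CPM at 10 µM. Each dose from 5 µM upward lay wholly above the dose before it. The fitted change over the range was 3.10 ± 0.26 on the log2 scale (adjusted p = 1.50e-09).

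*Notum* encodes a secreted enzyme that removes the lipid from Wnt ligands and so inactivates them. It was at 9.24 and 8.51 CPM without CHIR99021, 8.62 and 16.0 CPM at 2.5 µM, 34.5 and 23.0 CPM at 5 µM, 47.2 and 49.0 CPM at 7.5 µM, and 42.5 and 68.5 CPM at 10 µM. The untreated and 2.5 µM libraries overlapped and every library from 5 µM upward was above them. The fitted change was 2.91 ± 0.27 (adjusted p = 8.76e-09). The antisense transcript *Notumos* overlaps the gene and held 33 counts in all libraries, against 1184 for *Notum*; whether strand was used in counting is not given in the sources used here.

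Past 5 µM, *Nkd1* and *Notum* passed the test. *Nkd1* gained 1.24 ± 0.22 (adjusted p = 0.0079) and *Notum* 1.05 ± 0.22 (adjusted p = 0.0434) between 5 µM and the mean of 7.5 and 10 µM. The fitted differences of *Rnf43* (0.61 ± 0.28) and *Znrf3* (0.39 ± 0.19) were also positive, both with an adjusted p of 0.966, and differences between the genes were not tested. In this comparison 5 of 10674 genes were called (0.0468%), all upward, and the other 3 were *Fgfbp3*, *Abhd2* and *Slc38a4*, named here after their values were seen. The calls are fragile: DESeq2 called neither gene, the fit with replicate number as a block called *Nkd1* but not *Notum* (adjusted p = 0.0639), the *Nkd1* call was lost without 5 µM replicate 1, 5 µM replicate 2 or 10 µM replicate 2, and the *Notum* call was lost in 6 of the 10 fits that leave out 1 library.

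*Znrf3* and *Rnf43* encode related membrane ubiquitin ligases that remove Frizzled receptors from the cell surface. *Znrf3* was at 23.9 and 23.4 CPM in untreated cells, 25.9 and 18.3 CPM at 2.5 µM, 42.8 and 37.4 CPM at 5 µM, 54.4 and 57.6 CPM at 7.5 µM, and 42.5 and 48.2 CPM at 10 µM. The 2.5 µM libraries enclosed the untreated ones and the highest values stood at 7.5 µM, not at 10 µM. The fitted change was 1.38 ± 0.25 (adjusted p = 0.000258). *Rnf43* was lower, at 5.98 and 6.38 CPM in untreated cells, 8.62 and 13.0 CPM at 2.5 µM, 14.8 and 17.8 CPM at 5 µM, 24.7 and 21.9 CPM at 7.5 µM, and 13.1 and 34.6 CPM at 10 µM. Both 2.5 µM libraries were above the untreated ones, with a fitted difference of 0.91 that is given without a test. The 2 libraries at 10 µM enclosed those of 5 and 7.5 µM, and the lower of them, the shallowest library, rested on 4 counts. The fitted change of *Rnf43* over the range was 2.12, also given without a test, since the gene passed the filter through the treated libraries.

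*Lgr4* and *Lgr5* encode receptors for R-spondins, secreted proteins that draw ZNRF3 and RNF43 away from Frizzled and so increase Wnt sensitivity. *Lgr4* was at 115 and 80.8 CPM in untreated cells, 58.9 and 93.0 CPM at 2.5 µM, 60.9 and 79.2 CPM at 5 µM, 83.4 and 77.2 CPM at 7.5 µM, and 45.7 and 70.8 CPM at 10 µM. At each of the 5 doses, its lower value was in the library with the lower mitochondrial share. The fitted change was −0.50 ± 0.19 (adjusted p = 0.0791). Within the 6 libraries of higher mitochondrial share it was −0.64 ± 0.17 (adjusted p = 0.0171), and with the mitochondrial set as a covariate, an alternative chosen after seeing the data, −0.66 ± 0.16 (adjusted p = 0.0032). The changes of the other 6 genes within those 6 libraries were 2.81 for *Axin2*, 3.38 for *Nkd1*, 2.99 for *Notum*, 1.49 for *Znrf3*, 2.23 for *Rnf43* and −1.08 for *Sfrp1*. Apart from *Rnf43*, given without a test, all had an adjusted p under 0.05. *Lgr5* had 0 to 4 counts in each unedited library, 11 in all (0.900 CPM, Wilson 95% interval 0.502 to 1.61), and no dose response was detectable at this depth.

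*Sfrp1*, a secreted decoy that binds Wnt ligands, moved the other way. It was at 105 and 102 CPM in untreated cells, 66.1 and 65.6 CPM at 2.5 µM, 47.7 and 57.1 CPM at 5 µM, 46.4 and 53.0 CPM at 7.5 µM, and 71.9 and 52.7 CPM at 10 µM. Every treated library was below both untreated ones, the 2.5 µM libraries included, and 1 of the 10 µM libraries was above those of 2.5 µM. The fitted change over the range was −1.02 ± 0.20 (adjusted p = 0.000625). At 2.5 µM the change was −0.63 ± 0.18 (adjusted p = 0.0457), but this call was lost in 6 of the 10 fits that leave out 1 library, with DESeq2 and with no filter on low counts. With replicate number as a block its adjusted p was 0.0542.

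*Dkk1* encodes a secreted antagonist of the co-receptor LRP6. Its counts were 1 and 0 in untreated cells, 2 and 1 at 2.5 µM, 1 and 4 at 5 µM, 4 and 6 at 7.5 µM, and 3 and 6 at 10 µM. Pooled over the 4 libraries at 7.5 and 10 µM, 19 counts gave 4.002 CPM (Wilson 95% interval 2.56 to 6.25), 11.1 times the pooled untreated level of 1 count, with an exact 95% interval of that ratio from 1.77 to 462. These intervals cover counting error only. *Apcdd1*, which encodes a membrane inhibitor of Wnt signaling, had 3 counts in the 10 unedited libraries, 1 each at 5, 7.5 and 10 µM.

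Each dose was also set against the untreated libraries, which the 4 comparisons share. At 5 µM the 5 rising genes and *Sfrp1* were called, where 8.55% of all genes were, and the same 6 genes were called at 7.5 µM (12.8% of all genes) and at 10 µM (10.1%). The calls of *Rnf43* among these are not read as tests, since it passed the filter through the treated libraries. At 5 µM, DESeq2 called 3 of the 7 genes, and over all genes it called 253 against 913 by edgeR. For the 5 µM comparison, leaving out untreated replicate 1 or 5 µM replicate 2 left 1 library in a group and fewer of the 7 genes called. The same held for the 10 µM comparison without 10 µM replicate 2. Without 5 µM replicate 2, or 10 µM replicate 2, fewer of all genes were called as well in the comparison of that dose.

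The other parts of the pathway were described from lists chosen with earlier results of these data known. Among 14 TCF/LEF factors and direct targets, 11 were tested against dose, 8 rose and 1 fell, with a median change of 2.24. *Cdx1*, a homeobox target, rose by 2.96 ± 0.27 (adjusted p = 8.22e-09), *T*, the mesoderm factor Brachyury, by 2.74 ± 0.36 (adjusted p = 3.79e-06), and *Sp5*, a zinc-finger factor, by 2.63 ± 0.34 (adjusted p = 2.49e-06), while the TCF family member *Tcf7l1* fell by 1.05 (± 0.16, adjusted p = 2.99e-05). Among 13 other secreted inhibitors, 2 were tested and *Sfrp2*, a relative of *Sfrp1*, fell by 0.84 (± 0.17, adjusted p = 0.000654). None of the 9 tested genes of the destruction complex and Dishevelled was called by edgeR. Both genes needed to secrete Wnt ligands rose, *Wls* by 1.48 ± 0.23 (adjusted p = 4.43e-05) and *Porcn* by 0.84 ± 0.23 (adjusted p = 0.0122). Of 15 receptors, 7 were tested, 2 rose (*Fzd10* and *Ryk*) and *Fzd7* fell.

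The second comparison asked how the same genes differ between clones with weaker and stronger β-catenin mutations. *Axin2* and *Sfrp1* were higher and *Lgr4* was lower in high than in low clones, and *Axin2* and *Znrf3* were higher and *Lgr4* lower in high than in medium clones. *Dkk1* passed the filter on low counts in the fit of the classes only through high clones, so it is not counted here, and *Rnf43* was not tested. *Nkd1*, which was not called, passed it through high clones and the low clone T41S. The counts below include *Nkd1*, but its differences between classes are not read as tests. In high against low clones 3 of the 6 other genes tested were called, where 29.8% of all 10452 genes were. In high against medium clones 3 of the 6 were called, where 4.51% of all genes were. In the linear fit on the score, 3 of 6 genes tested were called, against 22.9% of all genes, with *Axin2* and *Sfrp1* rising and *Lgr4* falling.

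**Figure D2:**
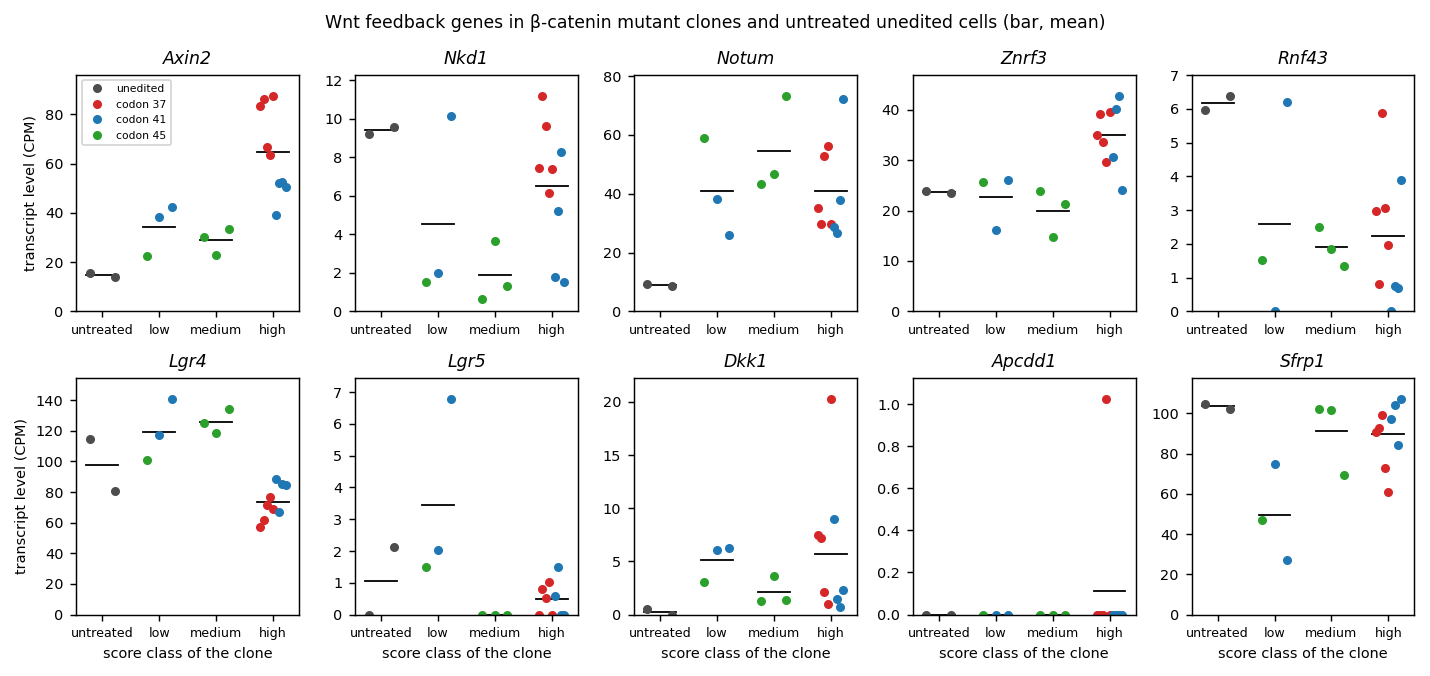
Transcript level (CPM, vertical axes, each from 0) of the 10 genes in untreated unedited cells (grey, 2 libraries) and in clones of the low (3), medium (3) and high (9) score class; each point is a library, colored by mutated codon, and bars are group means. *Axin2* separated by codon, at 22.6 to 33.3 CPM for codon 45, 38.3 to 52.4 CPM for codon 41 and 63.4 to 87.4 CPM for codon 37, and *Lgr4* was below 90 CPM in all 9 high clones and above 100 CPM in the other 6.

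*Axin2* ran from 38.9 to 87.4 CPM in the high clones with a median of 63.4 CPM. It was 30.1 and 22.9 CPM in the S45F clones and 33.3 CPM in S45P, and 38.3 CPM in T41N, 42.4 CPM in T41S and 22.6 CPM in S45C. The medium class did not overlap the high class, whereas the T41S clone lay above the lowest high clone, one of the 2 T41A clones. High against low clones differed by 0.85 ± 0.25 on the log2 scale (adjusted p = 0.0134) and high against medium by 1.21 ± 0.25 (adjusted p = 0.0100). From the lowest to the highest score the fitted change was 1.20 ± 0.39 (adjusted p = 0.0323), a call lost without T41N or S45C. The high against medium call was lost without either S45F clone, where the adjusted p reached 0.0756.

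The mutated codon moved with these values. *Axin2* was at 63.4 to 87.4 CPM in the 5 clones mutated at codon 37, at 38.3 to 52.4 CPM in the 6 at codon 41 and at 22.6 to 33.3 CPM in the 4 at codon 45, so that the 3 codons did not overlap. With codon as a factor beside the score, the fitted change of *Axin2* along the score was 0.067 (adjusted p = 0.889), and with the rank of the score in place of its value the adjusted p was 0.131. The high against low call was lost without the S45C clone (adjusted p = 0.0789) and without all S45 clones (adjusted p = 0.0953). Score and codon are largely tied in this set, since every S37 mutation is high and no S45 mutation is.

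A pair of comparisons was added after these values were seen. Among the high clones, those at codon 37 exceeded those at codon 41 by 0.68 ± 0.14 in *Axin2*, with no overlap, but edgeR's adjusted p was 0.124, and 0 of 6 genes were called where 0.0733% of all 9550 genes were. At an unadjusted p under 0.05 stood *Axin2*, *Nkd1* and *Lgr4*, and the share of all genes under that threshold was not computed. DESeq2 called *Axin2* (adjusted p = 0.0193), as did edgeR with no filter on low counts (adjusted p = 0.0092). Within codon 41, T41A and T41I against T41N and T41S differed by 0.26 ± 0.22 in *Axin2* (adjusted p = 0.429), by −0.66 ± 0.17 in *Lgr4* (adjusted p = 0.0152) and by 1.22 ± 0.31 in *Sfrp1* (adjusted p = 0.0115). There 2 of 6 genes were called, where 21.9% of all genes were, and without the T41S clone *Lgr4* had an adjusted p of 0.338 and *Sfrp1* of 0.440.

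*Lgr4* separated the high clones from the others. It ran from 57.3 to 88.7 CPM in the high clones with a median of 71.5 CPM. It stood at 125 and 118 CPM in S45F, 134 CPM in S45P, 117 CPM in T41N, 141 CPM in T41S and 101 CPM in S45C. No high clone reached any medium or low clone, and the 2 lower classes overlapped each other. High clones were lower than low clones by 0.73 on the log2 scale (−0.73 ± 0.15, adjusted p = 0.000660) and lower than medium clones by 0.74 (−0.74 ± 0.14, adjusted p = 0.0062). With codon as a factor, the change along the score had an adjusted p of 0.104.

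*Sfrp1* was lowest in the low class. It was 74.7 CPM in T41N, 27.1 CPM in T41S and 46.8 CPM in S45C, against 102 and 102 CPM in S45F, 69.2 CPM in S45P, and 60.7 to 107 CPM, with a median of 92.7 CPM, in the high clones. T41N lay inside the range of the high clones. High exceeded low clones by 1.02 ± 0.24 (adjusted p = 0.0023) and medium exceeded low clones by 1.03 ± 0.27 (adjusted p = 0.0169). In the latter comparison *Sfrp1* alone of the genes was called, where 11% of all genes were. Along the score the fitted change of *Sfrp1* was 1.08 ± 0.32 (adjusted p = 0.0186), and with codon as a factor it was 1.77 ± 0.34 (adjusted p = 0.000588), the 1 call that was left under that setting. The first call was lost without the T41S clone (adjusted p = 0.0924), the score trend without T41S or S45C, and the second without T41S or either S45F clone. T41S was also the clone with the highest level of fibroblast markers, and its part in the result was not tested.

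*Znrf3* was at 24.0 to 42.7 CPM in the high clones (median 35.0 CPM), at 23.8 and 14.7 CPM in S45F and 21.3 CPM in S45P, and at 16.1 CPM in T41N, 26.0 CPM in T41S and 25.6 CPM in S45C. Only 1 high clone, a T41I clone, fell within the range of the other classes. High exceeded medium clones by 0.83 ± 0.21 (adjusted p = 0.0285). The difference from low clones, 0.57 ± 0.21, had an adjusted p of 0.0501, which went under 0.05 in 7 of the 15 fits that leave out 1 clone, and the high against medium call was lost without S37C, S45P or either S45F clone.

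*Notum* did not pass the test between classes. It was at 26.8 to 72.1 CPM in the high clones (median 35.0 CPM), at 43.3 and 46.8 CPM in S45F and 73.2 CPM in S45P, and at 38.3 CPM in T41N, 26.0 CPM in T41S and 58.8 CPM in S45C. The classes overlapped throughout, and high and low clones differed by 0.08 ± 0.31 (adjusted p = 0.887). *Nkd1* was at 1 to 18 counts per clone, 1.55 to 11.2 CPM in high clones, 0.628 to 3.67 CPM in medium and 1.51 to 10.2 CPM in low clones. The high against low difference of *Nkd1* was 0.08 ± 0.56 (adjusted p = 0.937), and it ranged widely, at −0.25 without the S45 clones and 1.89 without the T41S clone (adjusted p = 0.214). Along the score the fitted change of *Nkd1* was 0.51, and 2.72 without T41S (adjusted p = 0.0856).

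The 4 mutations with 2 clones each showed how much clones of one genotype vary. The standard deviation between such clones, on the log2(CPM + 1) scale, was 0.20 for *Axin2* and 0.15 for *Lgr4*, against 0.63 and 0.42 over all 15 clones. For *Sfrp1* it was 0.20 against 0.53. For *Nkd1* (0.96 against 0.98), *Dkk1* (0.90 against 1.04) and *Znrf3* (0.40 against 0.45), clones of one mutation differed nearly as much as clones of all mutations. The 2 T41I clones, for example, had 37.9 and 72.1 CPM of *Notum* and 8.27 and 1.55 CPM of *Nkd1*.

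Clones were then set against unedited cells, in a single fit over all 25 libraries. In high clones *Axin2*, *Notum* and *Znrf3* were higher than in untreated cells, in a comparison in which 34% of all 11375 genes were called. In low clones *Axin2* and *Notum* were higher and *Sfrp1* was lower, where 32.6% of all genes were called. *Dkk1* and *Rnf43* passed the filter on low counts in this fit through the few libraries in which they were high, so that no count or median over the genes tested is given and both are described by their values.

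**Figure D3:**
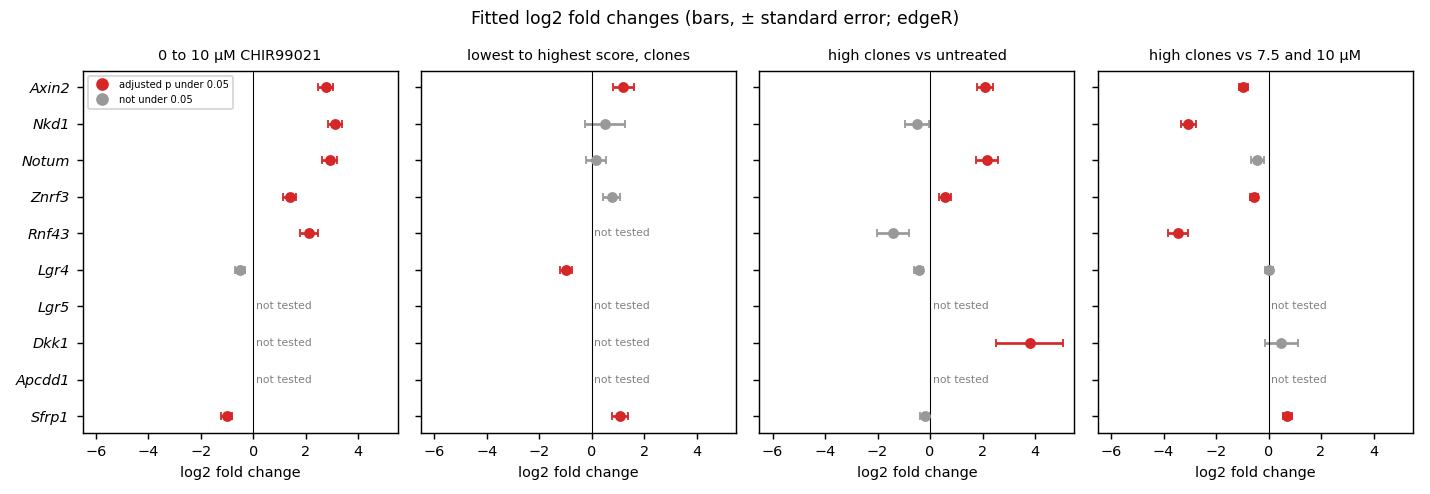
Fitted log2 fold changes (horizontal axes) of the genes in 4 comparisons. Points are estimates and bars are ± 1 standard error. Red points have an adjusted p under 0.05, and genes with too few counts are marked as not tested. *Dkk1* and *Rnf43* passed the filter in the fits of clones against unedited cells through the libraries in which they were high. Their points in those panels, and the point of *Rnf43* in the dose panel, red ones included, are therefore not read as tests. *Nkd1* and *Rnf43* rose over the CHIR99021 range by 3.10 and 2.12 but had changes of −3.05 and −3.45 in high clones against 7.5 and 10 µM, whereas *Notum* was higher both over the dose range and in high clones against untreated cells.

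*Axin2* was above both untreated libraries in all 15 clones, by 2.102 ± 0.31 on the log2 scale in high clones (adjusted p = 6.09e-06) and by 1.23 ± 0.37 in low clones (adjusted p = 0.0103). The latter call was lost without either untreated library or without T41S, where the adjusted p reached 0.130. *Notum* was likewise above both in all 15 clones, by 2.17 ± 0.41 in high (adjusted p = 0.000188) and by 2.06 ± 0.48 in low clones (adjusted p = 0.0014). *Znrf3* was above both untreated libraries in all 9 high clones, by 0.57 ± 0.22 (adjusted p = 0.0421), a call that was lost in 7 of the 25 fits that leave out 1 library, with DESeq2, with RLE scaling and with no filter on low counts. *Sfrp1* was lower than in untreated cells in low clones (−1.26 ± 0.27, adjusted p = 0.000540), while in high clones the change was −0.20 ± 0.20 (adjusted p = 0.451). *Lgr4*, at 115 and 80.8 CPM in untreated cells, passed in neither class. Its change was −0.43 ± 0.17 in high clones (adjusted p = 0.0541) and 0.27 ± 0.21 in low clones (adjusted p = 0.331). The high clones were called with RLE scaling (adjusted p = 0.0397) and in some fits that leave out 1 library.

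*Nkd1* and *Rnf43*, which rose with CHIR99021, were mostly low in the clones. *Nkd1* was below both untreated libraries in 12 of 15 clones and *Rnf43* in 14 of 15. The fitted change of *Nkd1* in high clones was −0.51 ± 0.47 (adjusted p = 0.419), not past the threshold. That of *Rnf43* was −1.40, and −1.81 without S37F replicate 1. Both values of *Rnf43* are given without a test, since the gene passed the filter through the CHIR99021 libraries. *Rnf43* had 0 to 11 counts per clone, with 9 of the 15 clones at 3 counts or fewer, and was therefore not tested between classes.

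The strongest mutations were also tested directly against the strongest GSK3 inhibition. High clones were lower than the mean of 7.5 and 10 µM in *Nkd1* (−3.05 ± 0.28, adjusted p = 8.05e-10), *Axin2* (−0.96 ± 0.17, adjusted p = 2.90e-05) and *Znrf3* (−0.56 ± 0.15, adjusted p = 0.0035), and higher in *Sfrp1* (0.72 ± 0.18, adjusted p = 0.0014). In this comparison 47% of all genes were called, and the calls of *Znrf3* and *Sfrp1* were lost without 10 µM replicate 2. *Rnf43* was at 0 to 5.87 CPM in high clones and 13.1 to 34.6 CPM at 7.5 and 10 µM, a fitted difference of −3.45 that is given without a test, since the gene passed the filter through the CHIR99021 libraries. *Nkd1*, *Rnf43* and *Axin2* were lower in all 9 high clones than in any of the 4 libraries at 7.5 and 10 µM. *Notum* differed by −0.42 ± 0.23 (adjusted p = 0.134) and *Lgr4* by 0.03 ± 0.15 (adjusted p = 0.882). Among the TCF/LEF factors and targets, 6 of 12 tested were lower in high clones, such as *Tnfrsf19*, *T* and *Lef1*, and *Myc*, a growth regulator, was higher by 2.98 ± 0.27 (adjusted p = 7.63e-10).

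*Dkk1* was above both untreated libraries in all 15 clones, though at 1 to 41 counts each. Pooled over the 9 high clones, 86 counts gave 6.50 CPM (Wilson 95% interval 5.27 to 8.03), 18.1 times the untreated level of 1 count with an exact 95% interval from 3.16 to 722. In the low clones 16 counts gave 5.46 CPM, a ratio of 15.2 (2.36 to 637), and in the medium clones 7 counts gave 2.04 CPM, a ratio of 5.67 (0.728 to 255). As for the doses, the intervals cover counting error only. They leave out the spread between clones, which ran from 0.689 to 20.2 CPM in the high class. No test is given, since *Dkk1* passed the filter through the libraries in which it was high.

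*Dkk1* varied widely inside the high class. The S37Y clone had 20.2 CPM (41 counts), S37A 7.44, S37C 7.19, S37F 2.14 and 1.02, T41A 8.99 and 1.49, and T41I 0.689 and 2.33 CPM. The 4 highest of these clones were also the 4 with most of 6 primitive endoderm markers, 255 CPM in sum in S37Y, 111 CPM in S37A, 80.9 CPM in the T41A clone and 79.1 CPM in S37C, against 7.76 to 45.9 CPM in the other 5. The part of these cells in the *Dkk1* level was not tested. Without S37Y the high clones had 4.02 CPM (45 counts), 11.2 times the untreated level (1.91 to 451).

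*Lgr5* had 20 counts in the 15 clones, 12 of them in the T41S clone (6.78 CPM). The medium clones had 0 counts of 3434748, which allows up to 1.12 CPM by the Wilson 95% interval. Leaving T41S out, 19 counts in 24 libraries gave 0.632 CPM (0.405 to 0.988). *Apcdd1* had 1 count in the clones, in an S37F clone.

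The last question was whether the genes moved with each other. Under CHIR99021, 14 of the 21 pairs of the 7 tested genes were correlated over the 10 libraries after adjustment over the pairs. These include pairs of *Rnf43*, which passed the filter on low counts through the treated libraries. The 10 pairs among *Axin2*, *Nkd1*, *Notum*, *Znrf3* and *Rnf43* were all positive, with r of log2(CPM + 1) between 0.778 and 0.932, and *Sfrp1* was negatively correlated with all of these except *Nkd1* (r = −0.656, adjusted p = 0.0575). The call of *Sfrp1* with *Notum* was lost without untreated replicate 2, and that with *Znrf3* without either untreated library, either 7.5 µM library or 10 µM replicate 2. No pair with *Lgr4* passed. *Axin2* and *Notum* were the closest pair (r = 0.932, adjusted p = 0.0010; rho = 0.964, adjusted p = 0.0012; permutation tests, 2-sided). Without the 2 libraries farthest from the median of *Axin2* the r was 0.957.

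**Figure D4:**
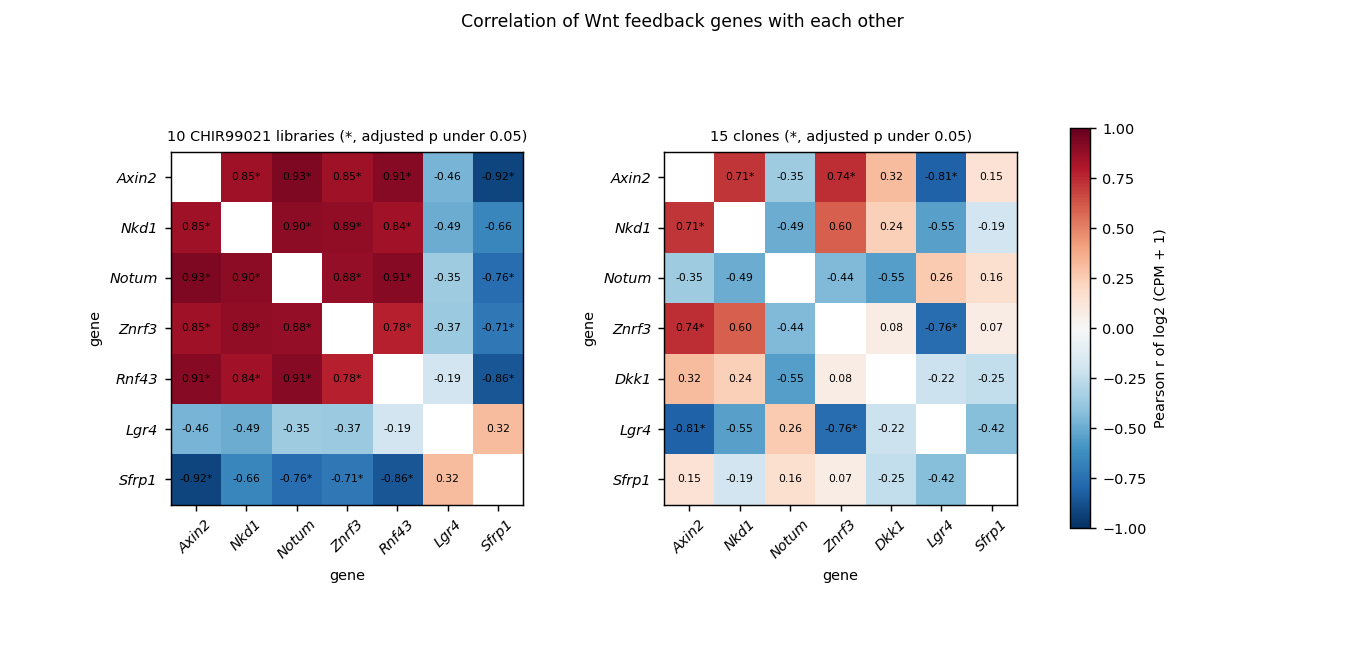
Pearson r of log2(CPM + 1) between pairs of genes over the 10 unedited libraries (left) and the 15 clones (right); color runs from −1 (blue) to 1 (red) and an asterisk marks an adjusted permutation p under 0.05. The block of positive values among the 5 rising genes on the left is broken on the right, where *Axin2* and *Notum* had r = −0.353 and *Axin2* and *Lgr4* r = −0.810.

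These libraries fall into 5 doses, so the pooled values describe mainly the shared rise. After subtracting the mean of each dose, the r of *Axin2* was 0.862 with *Notum*, 0.500 with *Rnf43*, 0.160 with *Znrf3*, −0.082 with *Nkd1* and −0.840 with *Sfrp1*, given as a description of the 5 pairs of replicates.

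Over the 15 clones, 4 of 21 pairs were correlated after adjustment. The share of all gene pairs that would pass was not computed, here or for the doses. Permutations treated the clones as exchangeable, though S37F, T41A, T41I and S45F had 2 clones each. The p-values, also those within the high clones, may therefore be too small. The 21 pairs include those of *Dkk1*, which passed the filter only through high clones, and none of the 4 is one of them. Pairs of *Nkd1*, which passed through high clones and the low clone T41S, are included too, and *Axin2* with *Nkd1* is among the 4. *Axin2* rose with *Znrf3* (r = 0.736, adjusted p = 0.0131; rho = 0.768, adjusted p = 0.0136) and with *Nkd1* (r = 0.714, adjusted p = 0.0177; rho = 0.743, adjusted p = 0.0136), and *Lgr4* ran against *Axin2* (r = −0.810, adjusted p = 0.0073; rho = −0.811, adjusted p = 0.0073) and *Znrf3* (r = −0.758, adjusted p = 0.0131; rho = −0.729, adjusted p = 0.0166), all by permutation test. Without the 2 clones farthest from the median of the first gene the r was 0.697, 0.773, −0.874 and −0.775. The *Axin2* and *Nkd1* pair lost its call without the S37C clone (adjusted p = 0.0547).

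*Lgr4* splits the clones into high and other clones with a gap, so the relation was also taken within the 9 high clones. There *Axin2* and *Lgr4* had r = −0.817 (exact permutation p = 0.0094, adjusted p = 0.137), *Axin2* and *Nkd1* r = 0.749 (exact p = 0.0179, adjusted p = 0.137), *Axin2* and *Znrf3* r = 0.374 (exact p = 0.324) and *Znrf3* and *Lgr4* r = −0.429 (exact p = 0.248). After subtracting the mean of each class over the 15 clones, the r was −0.330 for *Axin2* and *Lgr4*, 0.252 for *Axin2* and *Znrf3*, −0.184 for *Znrf3* and *Lgr4* and 0.574 for *Axin2* and *Nkd1*, given as a description. None of the 21 pairs passed within the high clones after adjustment, and 4 had an unadjusted exact p under 0.05. *Axin2* and *Notum*, the closest pair under CHIR99021, had r = −0.353 over all clones (adjusted p = 0.372) and −0.129 within the high clones (exact p = 0.733).

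Over all 25 libraries the genes most like *Axin2*, out of 9045 genes that averaged 10 CPM or more, were *B4galt5* (r = 0.884), *T* (0.854), *Ctsc* (0.854), *Ppic* (0.853) and *Pdgfa* (0.846). Of the other feedback genes, *Znrf3* ranked 15 (r = 0.795), *Nkd1* 72 (0.644), *Notum* 581 (0.428), *Sfrp1* 7942 (−0.379) and *Lgr4* 8882 (−0.606). These values describe 25 libraries that share doses, mutations and cell line, and carry no test. *Notum* and *Sfrp1* thus had opposite relations to *Axin2* under CHIR99021 (r = 0.932 and −0.920). In clones their r with it was −0.353 and 0.146, and neither was called. The difference between doses and clones was not tested.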

How the data were processed

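The authors deposited 1 table of raw counts per gene for all 25 libraries, made from deduplicated 3′ reads with unique molecular identifiers. According to the study's methods and the submitters' processing notes, reads were trimmed, aligned to mm10 with STAR, deduplicated with UMI-tools and Picard, and counted with featureCounts 2.0.1; no normalization was applied, and the strand setting and annotation release are not given in the sources used here. Symbols and positions of genes were taken from GENCODE M21, where 48058 of 48440 identifiers were found.

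CPM were computed from the library totals of 306157 to 2083398 counts. Models used edgeR 4.0.16 in R 4.3.3 (scaling by TMM, low counts removed by filterByExpr at its default count of 10, quasi-likelihood F-test, Benjamini-Hochberg adjustment over all genes tested, threshold 0.05). The dose trend was linear in µM and the score trend linear in the score, both scaled to the whole range. Standard errors are the absolute log2 fold change divided by the square root of F. Dose steps were fitted on the 10 unedited libraries, classes on the 15 clones, and clones against unedited cells on 8 groups of all 25 libraries. Labels do not say whether libraries of a dose came from separate cultures, so p-values measure the spread between these libraries, and clones of one class, not of one mutation, served as replicates. Correlations used log2(CPM + 1) and 100000 permutations, or all 362880 orders for 9 clones. Fits were tested on simulated data.

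The 10 genes are always named; listed pathway genes were named if called with a mean of at least 20 CPM, up to 4 per list by size of change, plus the 5 genes most like *Axin2*. Genes and lists were chosen with earlier results of these data known. Alternatives were RLE scaling, DESeq2 1.42.0, no filter on low counts, leaving out each library, a replicate block, ranks, codon as a factor, summed counts per mutation, the mitochondrial share and untransformed or TMM-scaled CPM for correlations.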

Additional observations from a re-analysis of the deposited data

Results flagged for a closer look

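One value stood far from the rest of its group. *Dkk1* in the S37Y clone A5 was at 20.2 CPM, and its gap to the next of the 9 high clones was 0.576 of their whole range, above Dixon's critical value for 9 samples. Among 16 ends of the ranges of 8 genes in the high clones, 1 was flagged, and chance alone flags about 1 in 20 groups. The same clone had 255 CPM of primitive endoderm markers, the highest sum of all libraries; its part in the *Dkk1* level was not tested.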

How the results depend on the processing

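The number of the 10 genes called in each comparison was recomputed under each alternative, and 60 of 70 counts outside leave-one-out stayed within 1.5 times the reported one. The others were as follows. At 2.5 µM 1 gene was called with DESeq2, with no filter and with the replicate block, at 5 µM 3 with DESeq2, and above 5 µM 0 with DESeq2 and 1 with the replicate block. The score trend called 1 gene (*Sfrp1*) with codon as a factor, medium against low clones gave 2 with no filter, and codon 37 against codon 41 gave 1 with DESeq2 and 1 with no filter. In the dose steps every fit that leaves out a library left 1 library in a dose. Genes with few counts could then pass the filter, so ranges for the dose steps are not given. For the clones, leaving out each library gave 1 to 3 genes for the score trend and 2 to 4 for high against low. It gave 0 to 1 for medium against low and 1 to 3 for high against medium clones. It gave 12 to 15 correlated pairs under CHIR99021 and 3 to 6 in clones. Counts for clones against unedited cells, although among the 70 above, are not given. There *Dkk1* and *Rnf43* passed the filter through the libraries in which they were high. Where a dose or class was left with 1 library, that library was assumed to vary like the others. Values that changed sign, none of them called, were *Nkd1* along the score with codon as a factor (−1.05) and in high against low clones without the S45 clones (−0.25) or leaving out 1 clone (−0.24 to 1.89), *Notum* along the score (−0.16 to 0.43) and in high against low clones (−0.26 to 0.44), *Lgr4* (−0.043 to 0.26) and *Dkk1* (−0.12 to 0.67) in high clones against 7.5 and 10 µM, and the correlation of *Axin2* with *Sfrp1* in clones (−0.030 to 0.268). The cause was not tested. Of the values of single genes and pairs, 244 kept direction and side of the threshold under the other alternatives, 13 lost a call and 8 gained one; on leaving out 1 library 1015 kept both, 55 lost a call and 19 gained one.

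Over all genes, DESeq2 called 70 at 2.5 µM, 253 at 5 µM, 422 at 7.5 µM, 362 at 10 µM and 1 above 5 µM, against 248, 913, 1364, 1074 and 5 by edgeR. With the mitochondrial set as covariate the counts were 545 at 2.5 µM, 1521 at 5 µM and 19 above 5 µM. With no filter 17 were called above 5 µM, 739 in high against medium clones and 126 for codon 37 against codon 41, against 5, 471 and 7, and DESeq2 called 27 in the last. Summed counts gave 240 in high against medium clones. Within codon 41 there were 351 calls without the T41S clone, against 2245 with it. Replicate numbers of the doses did not pair the libraries: over 10 pairs of doses the correlation of deviations ran from −0.233 to 0.190 and 3 exceeded 0.1. With the replicate block, *Sfrp1* at 2.5 µM (adjusted p = 0.0542) and *Notum* above 5 µM (adjusted p = 0.0639) lost their calls, 6 genes were called along the dose, and the change of *Axin2* along the dose was 2.78. Depth limits *Dkk1*, *Lgr5*, *Apcdd1*, and *Rnf43* and *Nkd1* in clones, where many libraries stood at 3 counts or fewer.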
